A study of Homo sapiens with 62 samples.

Results

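The comparison covered the control libraries of a pair of human pancreatic ductal adenocarcinoma (PDAC) cell lines, AsPC-1 and T3M-4, which the study used as its classical and basal-like models in SLAM-seq. The members were chosen by line and treatment label and came to 14 of the 62 libraries, 10 from AsPC-1 and 4 from T3M-4, each treated for 4 h with dTAGv-1-NEG (NEG), the inactive analogue of the KLF5 degrader. Both groups carried the genotype label FKBP12-F36V-FLAG-KLF5_sgEndogenousKLF5, for cells given a degron-tagged KLF5 as a cDNA, with the endogenous KLF5 gene targeted by CRISPR. Whether some cells kept an intact endogenous gene was not tested here. The AsPC-1 libraries came from 3 experiments, numbered 1.1 to 1.4, 2.1 to 2.2 and 3.1 to 3.4, and the T3M-4 libraries from 2, numbered 1.1 to 1.2 and 2.1 to 2.2. The labels placed experiments 1 and 2 of AsPC-1 in batch 1 and its experiment 3 in batch 2, and experiment 1 of T3M-4 in batch 1 and its experiment 2 in batch 2. Each subtype stood as 1 line, and line and library set coincided, so an effect of the subtype, of the line and of its library set cannot be told apart. Nothing states that the libraries of 1 experiment came from separate cultures, and the p-values measure the spread among these libraries only.

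Classical PDAC resembles gland-forming endodermal epithelium, with the nuclear receptor HNF4A and mucus and brush-border genes. Basal-like PDAC resembles stratified squamous epithelium, with the p63 transcription factor from TP63, the keratin pair KRT5 and KRT14, and genes of the cornified envelope, the protein shell of skin cells. KLF5 is a zinc finger transcription factor of epithelial cells that the study placed in both states, with the ATPases RUVBL1 and RUVBL2 as its coactivators. SLAM-seq sequences RNA 3′ ends after cells have taken up a modified uridine that reads as T>C conversions. The counts of all reads, labelled and unlabelled, served here as the steady-state level, and the T>C reads were set beside them as the newly made RNA.

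The AsPC-1 libraries held 102320704 to 196686986 counts and the T3M-4 libraries 111132257 to 209650478. Levels are given as CPM, a gene's counts relative to its library's total, scaled by TMM to even out composition between libraries. Pearson's r of log2(CPM + 1) across genes was 0.968 to 0.998 between AsPC-1 libraries, 0.977 to 0.995 between T3M-4 libraries and 0.859 to 0.88 between the lines. Among AsPC-1 libraries, 1.1, 1.2, 3.1 and 3.2 grouped together, as did 1.3, 1.4, 3.3 and 3.4, and 2.1 with 2.2, so the groups cut across experiments 1 and 3. MALAT1, a nuclear non-coding RNA, took 7.22% to 20.2% of the reads in AsPC-1 and 3.32% to 11.1% in T3M-4. One AsPC-1 library, 3.2, held reads of T3M-4 genes. Of 31 genes with a mean of at least 50 CPM in T3M-4 and a median of 0 CPM in AsPC-1, a set picked from these values, 30 had a read in library 3.2 and 1 to 4 in each of the other AsPC-1 libraries. Their summed level in library 3.2 was 0.405% of the T3M-4 mean, against at most 0.00443% in the other AsPC-1 libraries. The part of this library in the results was not tested beyond leaving it out. Its values are marked for some genes below. Unmarked highest AsPC-1 values of other T3M-4 genes, such as LY6D, KRT5 and TP63, also came from it.

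The 2 lines differed in most genes. Of 15928 genes tested, 5336 (33.5%) were higher in T3M-4 and 4571 (28.7%) higher in AsPC-1, 62.2% in all, at a Benjamini-Hochberg adjusted p under 0.05 in edgeR's quasi-likelihood test. Since most genes pass such a test, a gene was said to separate the lines where it was called, differed by at least 3 on the log2 scale and had CPM ranges that did not overlap between the lines. By this rule 1569 genes (9.85%) were higher in T3M-4 and 651 (4.09%) higher in AsPC-1. The ranges alone stood apart for 3790 genes (23.8%) higher in T3M-4 and 2888 (18.1%) higher in AsPC-1. Within batch 1, with 6 AsPC-1 and 2 T3M-4 libraries, 1799 and 650 genes separated the lines, and within batch 2, with 4 and 2, 1591 and 891. Without library 3.2 the counts were 1577 and 657. The median log2 difference over all tested genes was 0.055, taken as T3M-4 minus AsPC-1 throughout.

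**Figure D1:**
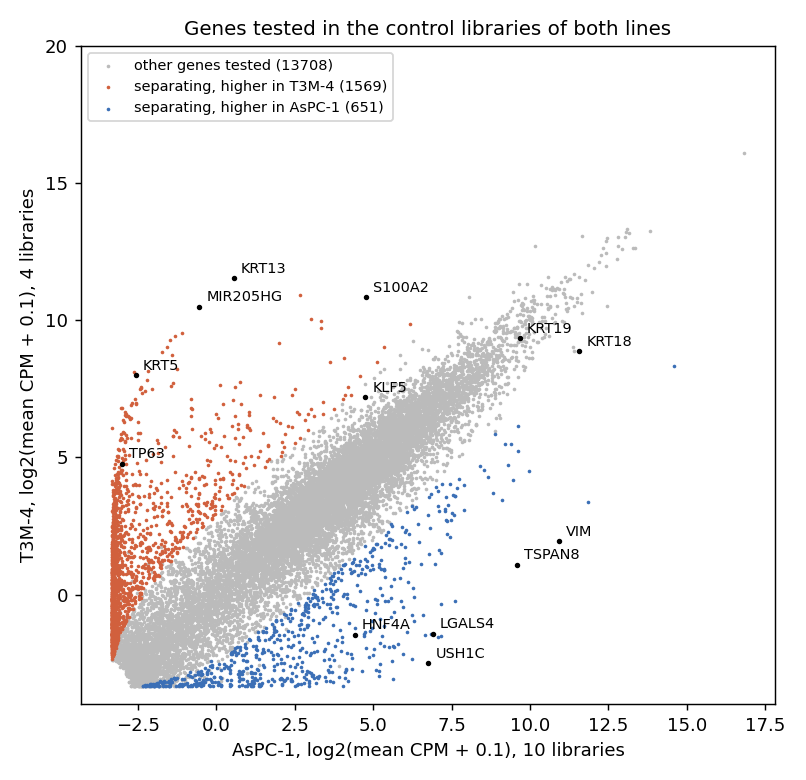
Mean level of each tested gene in AsPC-1 (horizontal, 10 libraries) and T3M-4 (vertical, 4 libraries) as log2(CPM + 0.1), 1 point per gene, with separating genes coloured and some named genes labelled. The 1569 separating genes of T3M-4 lie above the diagonal, some of them, such as KRT5 and TP63, at the left edge where AsPC-1 had close to no reads and others, such as S100A2, well within the AsPC-1 range, while KRT19 lies near the diagonal.

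The genes with the largest differences toward T3M-4 were taken among those with a mean of at least 50 CPM there. LINC01980, a long non-coding RNA on chromosome 3 (27797552 to 27931579), had 81.1, 80.1, 61.6 and 42.6 CPM in the T3M-4 libraries and no read in any AsPC-1 library, at least 30500-fold lower against 3 counts over the group. MIR205HG, the host transcript of a microRNA of stratified epithelium, had 1551, 1435, 1420 and 1372 CPM in T3M-4 and 0 CPM in 9 AsPC-1 libraries, with 5.85 CPM in library 3.2. LDHB, the lactate dehydrogenase B subunit, followed with 598 to 647 CPM in T3M-4 and 0 in all AsPC-1 libraries but 3.2, where it had 2.57. Glutamine synthetase, GLUL, was at 97.9 to 133 CPM and the secreted glutathione peroxidase GPX3 at 63.1 to 162 CPM in T3M-4, and each again had reads in AsPC-1 library 3.2 alone. LY6D, a surface protein of squamous cells, had 111.4 to 443 CPM in T3M-4 and at most 0.5682 in AsPC-1. All T3M-4 values of these genes lay above all AsPC-1 values. For LINC01980 and the other 5 the fitted log2 differences were 11.11 to 12.27, values that rest on near-empty AsPC-1 libraries and on the prior count of the fit. DESeq2 gave GLUL, MIR205HG and LDHB log2 differences of 5.75, 5.68 and 5.68 with adjusted p = 0.104, 0.108 and 0.108, short of the threshold.

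The largest differences toward AsPC-1 were taken by the same rule. USH1C, the brush-border scaffold harmonin, ranged from 57.6 to 198 CPM (median 95.03) in AsPC-1 against 0.0249 to 0.142 in T3M-4, a log2 difference of -10.22 (SE 0.59, adjusted p = 1.28e-09). CDH17, the cadherin of intestinal epithelium, had 37.8 to 139 CPM against 0.0756 to 0.143 (log2 -9.43, SE 0.54). DDC, the decarboxylase that makes dopamine and serotonin, had 98.1 to 192 CPM against 0.157 to 0.298 (log2 -9.06, SE 0.31). THBS2, a matrix thrombospondin, ranged from 55.3 to 282 CPM within AsPC-1 and stayed at or below 0.442 in T3M-4. PKDCC, a secreted kinase, had 18.96 to 92.3 CPM in AsPC-1 and at most 0.168 in T3M-4. The trypsinogen gene PRSS3 had 75.1 to 183 CPM in AsPC-1 and at most 0.395 in T3M-4, while the acinar marker PRSS1 had a mean of 0 CPM in both lines. The T3M-4 libraries were uniformly low for all 6 genes. Among the 651 separating genes higher in AsPC-1, the highest AsPC-1 library exceeded the lowest by a median of 3.24-fold, and by over 4-fold in 249 genes.

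The published subtype signatures divided as their names state, with a minority moving the other way. These 6 lists were drawn from tumour cohorts and not from these libraries. The study used AsPC-1 and T3M-4 as classical and basal-like models and scored PDAC lines with genes from the same sources. The split is therefore no independent test of the subtype names of the lines. Of the 171 tested members of the Moffitt Classical list, 112 (65.5%) were higher in AsPC-1 and 25 (14.6%) higher in T3M-4, with a median log2 difference of -2.21. The Bailey Progenitor list had 194 of 324 (59.9%) higher in AsPC-1 and 48 (14.8%) higher in T3M-4, and the Chan-Seng-Yue Classical-A list 133 of 241 (55.2%) and 45 (18.7%). In the Moffitt Basal-like list 99 of 145 (68.3%) were higher in T3M-4 and 26 (17.9%) higher in AsPC-1, with a median of 1.90. Bailey Squamous members were higher in T3M-4 in 288 of 405 cases (71.1%) and in AsPC-1 in 55. The Chan-Seng-Yue Basal-A list held 264 of 350 (75.4%) higher in T3M-4, 34 (9.71%) higher in AsPC-1 and a median of 3.402. Over all tested genes these shares were 33.5% and 28.7%. Separating genes higher in AsPC-1 numbered 64 in Moffitt Classical and 5 in Moffitt Basal-like, and those higher in T3M-4 numbered 10 and 61. Of the 232 genes of the Moffitt Classical list, 198 were in the table and 171 of those passed the filter on low counts. Members missing from the table or removed by the filter are not covered by these shares.

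**Figure D2:**
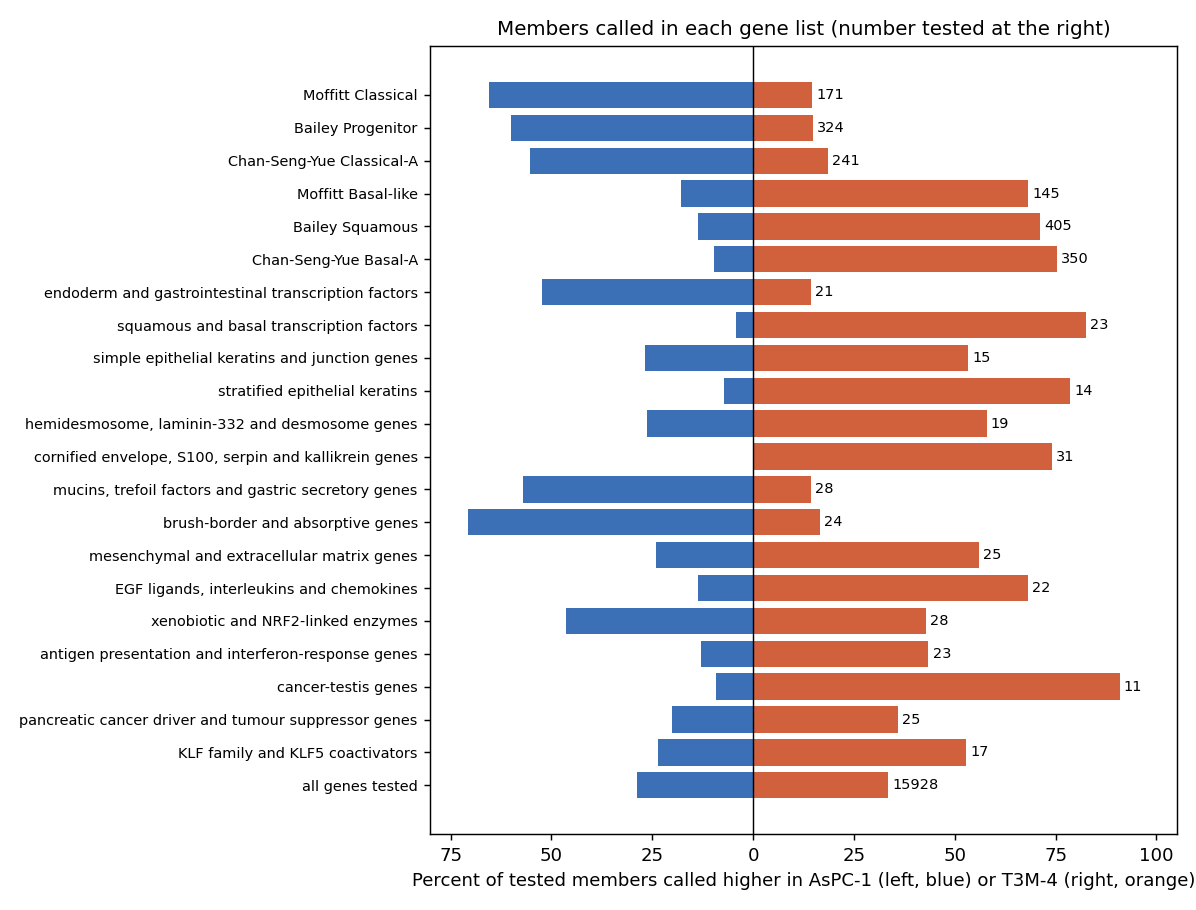
Percent of tested members called higher in AsPC-1 (left, blue) or in T3M-4 (right, orange) in each gene list, with the number tested beside each bar and all 15928 tested genes at the bottom. The classical lists extend left and the basal lists right, against 28.7% and 33.5% of all genes.

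Endodermal transcription factors were mostly higher in AsPC-1, with FOXA2 as the exception of largest size. Of 26 listed, 21 were tested, 11 (52.4%) were higher in AsPC-1 and 3 (14.3%) in T3M-4, against 28.7% and 33.5% of all genes. HNF4A, the hepatocyte nuclear receptor on chromosome 20 (44355699 to 44432845), ranged from 10.1 to 35.0 CPM in AsPC-1 (median 16.99) and had 0.161, 0.209, 0.564 and 0.109 CPM in T3M-4 (log2 -6.31, SE 0.60, adjusted p = 2.47e-07). Within AsPC-1 its 4 libraries 1.3, 1.4, 3.3 and 3.4 held 27.4 to 35.0 CPM and the other 6 held 10.1 to 17.3. CREB3L1, a membrane-bound factor of secretory cells, spanned 6.01 to 99.9 CPM in AsPC-1, with the same 4 libraries at 6.01 to 12.3, and at most 0.383 in T3M-4. GATA6, the factor most used to mark classical tumours, differed far less, with 3.203 to 5.15 CPM in AsPC-1 and 2.31, 1.92, 1.37 and 1.64 in T3M-4 (log2 -1.19, SE 0.19, adjusted p = 5.09e-05). ELF3, an epithelial ETS factor, was at 47.5 to 92.4 CPM in AsPC-1 against 26.99 to 40.7 (log2 -0.96, SE 0.17). FOXA2, a pioneer factor of endoderm, went the other way, with 27.7, 29.2, 25.5 and 25.1 CPM in T3M-4 and at most 0.137 in AsPC-1, that value again from library 3.2 (log2 9.01, SE 0.54).

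Squamous factors were higher in T3M-4 in 19 of the 23 tested (82.6%) and higher in AsPC-1 in 1 (4.35%). The shares of all genes were 33.5% and 28.7%. Members with no read in AsPC-1, such as PAX9 and DLX5, could pass the filter on low counts only through T3M-4. The share of squamous factors is therefore partly set by the filter. TP63 on chromosome 3 (189631389 to 189897276) had 31.2, 27.4, 24.5 and 25.1 CPM in T3M-4 and 0 to 0.0874 in AsPC-1 (log2 9.52, SE 0.58, adjusted p = 2.45e-09). Counts over the gene's 3′ end do not tell its isoforms apart, and the N-terminally shortened form that basal cells use was not measured on its own. IRX4, an Iroquois homeobox factor, had 52.2 to 72.8 CPM in T3M-4 and reads in AsPC-1 library 3.2 only, at 0.281 CPM. TFAP2C, an AP-2 factor of surface ectoderm, had 9.92 to 16.3 CPM in T3M-4 and, in AsPC-1, reads only in library 3.2 (0.0624 CPM). GLI2, an effector of Hedgehog signalling, was the 1 member higher in AsPC-1, at 19.1 to 28.1 CPM against 5.01, 3.71, 2.82 and 2.81 (log2 -2.71, SE 0.19).

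**Figure D3:**
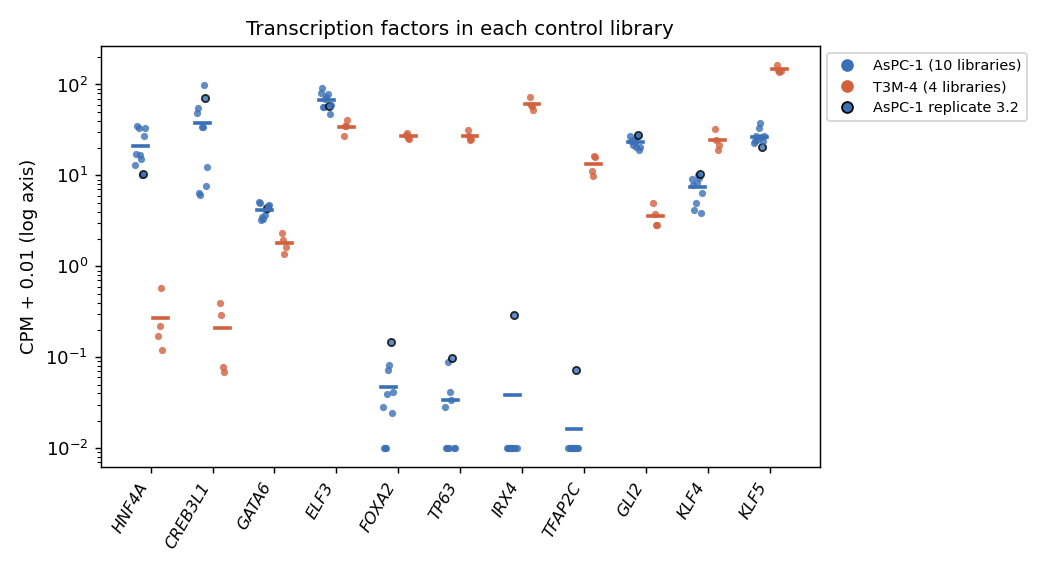
CPM + 0.01 (log axis) of 11 transcription factors in each AsPC-1 (blue, 10 libraries) and T3M-4 (orange, 4 libraries) NEG library, with the mean as a bar and AsPC-1 library 3.2 outlined in black. HNF4A and CREB3L1 fall near empty in T3M-4, FOXA2, TP63, IRX4 and TFAP2C near empty in AsPC-1, and GATA6, ELF3 and KLF5 were present in both lines.

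Stratified keratins were mostly higher in T3M-4, while simple keratins differed by member. Keratins form pairs, and KRT8 with KRT18 is the pair of simple, single-layered epithelium. KRT8 was at 1832 to 3720 CPM in AsPC-1 and at 337, 203, 656 and 668 CPM in T3M-4 (log2 -2.54, SE 0.32), and KRT18 at 2209 to 4429 against 357 to 590 (log2 -2.70, SE 0.24). Both lines thus expressed them, with all AsPC-1 libraries above all T3M-4 libraries. KRT7, a keratin of ductal epithelium, was in contrast at 956, 688, 340 and 344 CPM in T3M-4 and at 1.04 to 7.73 in AsPC-1 (log2 7.21, SE 0.49). KRT19, the common ductal keratin, had 435 to 1007 CPM in AsPC-1 and 399 to 905 in T3M-4, overlapping ranges with no call (log2 -0.33, SE 0.23, adjusted p = 0.222). Within batch 1 it was called higher in AsPC-1 (log2 -0.81, adjusted p = 0.0244), as it was without T3M-4 experiment 2 (log2 -0.92, adjusted p = 0.00741). Of 14 stratified keratins tested, 11 (78.6%) were higher in T3M-4, 10 of them separating, and 1 (7.14%) higher in AsPC-1. Over all genes 33.5% were higher in T3M-4, with 9.85% separating, and 28.7% were higher in AsPC-1. KRT5 on chromosome 12 (52514575 to 52520530) had 172, 122, 388 and 341 CPM in T3M-4, lower in experiment 1 than in experiment 2, and 0 to 0.450 CPM in AsPC-1 (log2 11.57, SE 0.83, adjusted p = 1.23e-08). KRT13, a keratin of inner stratified linings, reached 2243, 1796, 4095 and 3726 CPM in T3M-4, with 0.0910 to 0.347 in 9 AsPC-1 libraries and 11.9 in library 3.2. KRT6A and KRT17, induced in wounded and basal epithelium, had 356 to 645 and 487 to 954 CPM in T3M-4 and at most 1.57 and 2.22 in AsPC-1, in each case in library 3.2. Without that library the log2 difference of KRT5 was 12.73 and of KRT13 13.78. KRT80 was the stratified-list keratin higher in AsPC-1, at 6.34 to 47.1 CPM against 3.46 to 4.64 (log2 -2.58, SE 0.62), and in batch 2 alone it missed the threshold (adjusted p = 0.052).

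Epithelial junction genes and mesenchymal genes were each divided between the lines. Of 15 tested simple keratins and junction genes, 8 (53.3%) were higher in T3M-4 and 4 (26.7%) in AsPC-1, against 33.5% and 28.7% of all genes. EPCAM, the epithelial adhesion molecule, was at 134 to 311 CPM in AsPC-1 and 31.4 to 36.6 in T3M-4 (log2 -2.71, SE 0.22). CDH1, E-cadherin, was higher in T3M-4, with 32.9, 33.5, 28.6 and 32.2 CPM against 4.55 to 20.8 (log2 1.32, SE 0.31, adjusted p = 0.00172). ESRP1, the splicing regulator that keeps epithelial isoforms, had 106 to 110.9 CPM in T3M-4 and 0 to 1.34 in AsPC-1 (log2 7.77, SE 0.72), and RAB25, an epithelial recycling GTPase, had 29.8 to 64.2 CPM against at most 0.144. VIM, the mesenchymal intermediate filament vimentin, ranged from 1080 to 2995 CPM in AsPC-1 and had 3.54, 3.28, 4.48 and 3.79 CPM in T3M-4 (log2 -8.9998, SE 0.41, adjusted p = 1.29e-10). ZEB1, a repressor of epithelial genes, had 48.9 to 74.8 CPM against 0.353 to 0.936 (log2 -6.28, SE 0.29), and S100A4, a calcium-binding protein of motile cells, 2082 to 5026 against 7.77 to 12.7 (log2 -8.51, SE 0.37). These AsPC-1 values stood apart from T3M-4 in every library. Other members of the same list were higher in T3M-4. COL4A1 and COL4A2, the type IV collagen chains, had 11.9 to 18.03 and 28.9 to 58.8 CPM in T3M-4 and at most 0.106 and 0.313 in AsPC-1. FN1, fibronectin, had 104, 133, 62.6 and 48.8 CPM in T3M-4 and 0 to 6.14 in AsPC-1, the highest in library 1.2 (log2 6.52, SE 1.07). Of the 25 tested members of the mesenchymal and matrix list, 14 (56%) were higher in T3M-4 and 6 (24%) in AsPC-1. The shares of all genes were 33.5% and 28.7%.

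**Figure D4:**
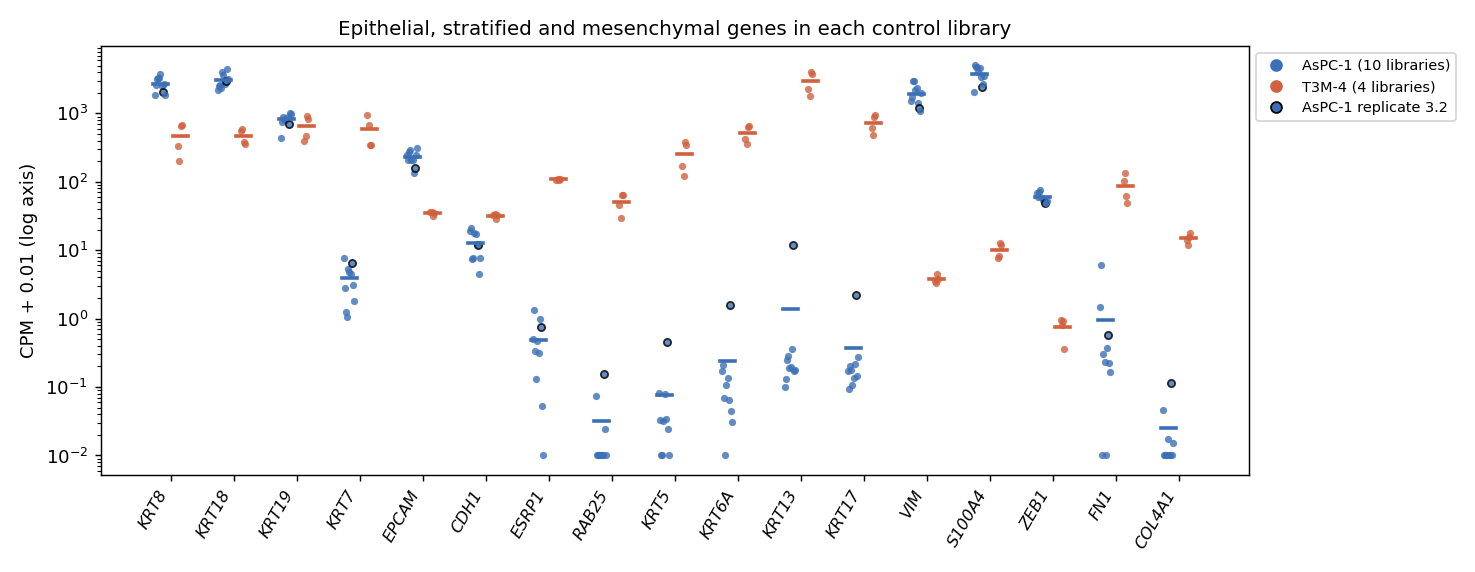
CPM + 0.01 (log axis) of keratins, junction genes and mesenchymal genes in each AsPC-1 (blue, 10 libraries) and T3M-4 (orange, 4 libraries) NEG library, with the mean as a bar and AsPC-1 library 3.2 outlined in black. KRT19 overlaps between the lines, KRT5, KRT6A, KRT13 and KRT17 appear in T3M-4, and VIM, S100A4 and ZEB1 appear in AsPC-1.

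Hemidesmosome, laminin-332 and desmosome genes, which anchor epithelia to matrix and to each other, were called in both directions. All 19 were tested, 11 (57.9%) were higher in T3M-4, 5 (26.3%) higher in AsPC-1, and 3 separated the lines, each higher in T3M-4, against 33.5%, 28.7% and 9.85% of all genes. LAMA3, a laminin-332 chain, had 51.2 to 74.04 CPM in T3M-4 and 5.50 to 31.9 in AsPC-1 (log2 1.75, SE 0.34). Desmoplakin, DSP, was at 210 to 384 CPM against 58.7 to 131 (log2 1.60, SE 0.22). DSG2, the desmoglein of simple epithelium, was higher in AsPC-1, at 23.3 to 77.7 CPM against 10.2 to 15.7 (log2 -1.93, SE 0.32), as was the plakin DST (log2 -1.01, SE 0.13). The cornified envelope, S100, serpin and kallikrein list was one-sided, with 23 of 31 tested members (74.2%) higher in T3M-4, all 23 separating, and 0 higher in AsPC-1. DESeq2 likewise called 0 higher in AsPC-1, 1 were higher there at an unadjusted p under 0.05 in edgeR, and the alternative settings gave 0 to 3. Members with next to no reads in AsPC-1, such as IVL and SERPINB4, could pass the filter on low counts only through T3M-4. The one-sided counts are therefore partly set by the filter.

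S100A2, a calcium-binding protein of squamous cells, had 1540, 1497, 2044 and 2272 CPM in T3M-4 and 13.64 to 45.5 in AsPC-1 (log2 6.08, SE 0.28, adjusted p = 1.61e-10). SERPINB2, a serpin of keratinocytes, had 107, 78.8, 66.5 and 59.0 CPM in T3M-4 and at most 0.287 in AsPC-1, and SPRR2D, a cornified envelope protein, 74.6 to 117 against at most 0.237. SERPINB5, the serpin maspin, was present in both, with 13.0 to 40.3 CPM in AsPC-1 and 28.9 to 41.2 in T3M-4, and was not called (log2 0.52, SE 0.30, adjusted p = 0.146). In batch 2 alone it was (log2 1.04, adjusted p = 0.0203). The promoters of S100A2 (the first of its 2 annotated starts) and SERPINB2 are shown, 250 bases before and 50 after the start in RefSeq on GRCh38.p14. They were picked because each held the AP-1 motif TGANTCA, in capitals with any TATAAA. Among other T3M-4 genes looked at, IL1A held it, whereas the second S100A2 start, KRT5, TP63 and IRX4 did not. MUC17 and a promoter of HNF4A, genes higher in AsPC-1, also held it.
S100A2 promoter, chr1:153565795-153566094, minus strand: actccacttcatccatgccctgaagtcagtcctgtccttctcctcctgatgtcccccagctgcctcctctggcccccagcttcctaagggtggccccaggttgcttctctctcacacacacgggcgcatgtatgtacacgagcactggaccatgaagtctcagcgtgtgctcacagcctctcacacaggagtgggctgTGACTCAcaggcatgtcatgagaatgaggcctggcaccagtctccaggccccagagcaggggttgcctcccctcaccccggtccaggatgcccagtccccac
SERPINB2 promoter, chr18:63887455-63887754, plus strand: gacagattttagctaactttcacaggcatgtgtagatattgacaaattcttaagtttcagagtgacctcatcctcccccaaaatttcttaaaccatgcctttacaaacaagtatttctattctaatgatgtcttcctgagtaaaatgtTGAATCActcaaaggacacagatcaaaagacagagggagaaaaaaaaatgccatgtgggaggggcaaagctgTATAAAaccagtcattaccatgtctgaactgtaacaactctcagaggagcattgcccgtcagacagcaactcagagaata

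Mucus and brush-border genes were more often higher in AsPC-1 than in T3M-4. In the mucin, trefoil and gastric list 16 of 28 tested (57.1%) were higher in AsPC-1, 4 in T3M-4 and 8 were not called, and in the brush-border list 17 of 24 (70.8%), 4 and 3, against 28.7% of all genes higher in AsPC-1. TSPAN8, a tetraspanin of gut epithelium, ranged from 439 to 1240 CPM (median 782) in AsPC-1 against 1.22 to 2.65 in T3M-4 (log2 -8.55, SE 0.46). LGALS4, the intestinal lectin galectin-4, had 79.1 to 175 CPM against 0.194 to 0.336 (log2 -8.71, SE 0.30, adjusted p = 2.24e-11). MUC17, a membrane mucin of the gut surface, spanned 4.85 to 124 CPM within AsPC-1, with libraries 1.3, 1.4, 3.3 and 3.4 at 65.1 to 124 and the other 6 at 4.85 to 33.5, and had at most 0.0421 in T3M-4. MUC16, the mucin that carries the CA125 antigen, was higher in T3M-4, at 11.1 to 20.01 CPM against at most 0.0919, as was the gastric annexin ANXA10, at 18.1 to 21.8 against 0.157 to 4.09. MUC1 had 26.8 to 265 CPM in AsPC-1 and 48.6, 66.7, 18.5 and 20.9 in T3M-4, overlapping and not called (log2 -1.17, SE 0.64, adjusted p = 0.124). Its highest AsPC-1 values, 92.6 to 265 CPM, were those of libraries 1.1, 1.2, 3.1 and 3.2, and without these 4, a choice made after seeing the data, its log2 difference was 0.08 (adjusted p = 0.845). Without libraries 1.3, 1.4, 3.3 and 3.4 instead, it was called at -1.69 (adjusted p = 0.0289).

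MYO1A, the brush-border myosin, had 1.25 to 13.99 CPM in AsPC-1 and 0 to 0.0407 in T3M-4 (log2 -7.83, SE 0.94, adjusted p = 3.06e-06). TM4SF5, a four-transmembrane protein of gut and liver, had 9.13 to 26.8 CPM against at most 0.0497 (log2 -8.32, SE 0.47). VILL, a villin-like actin binder, was higher in T3M-4, at 6.97 to 15.004 CPM against 0.755 to 2.44 (log2 2.95, SE 0.27), and in T>C reads it was not called (log2 1.07, adjusted p = 0.137). FA2H, a fatty acid hydroxylase, differed little, at 10.8 to 23.015 CPM in AsPC-1 and 11.7, 11.3, 5.50 and 5.25 in T3M-4 (log2 -0.80, SE 0.25, adjusted p = 0.0117), and it was not called within batch 1 (adjusted p = 0.292), without T3M-4 experiment 2 (0.248), with counts summed per experiment (0.0704) or in T>C reads (0.0572). The promoters of MYO1A (the second of its 2 annotated starts) and TM4SF5 are shown because each held the HNF4 motif CAAAGTNCA on 1 strand, in capitals with any TATAAA. The first MYO1A start and the promoters of LGALS4, USH1C, DDC, TSPAN8 and MUC17, also higher in AsPC-1, did not hold it.
MYO1A promoter, chr12:57050080-57050379, minus strand: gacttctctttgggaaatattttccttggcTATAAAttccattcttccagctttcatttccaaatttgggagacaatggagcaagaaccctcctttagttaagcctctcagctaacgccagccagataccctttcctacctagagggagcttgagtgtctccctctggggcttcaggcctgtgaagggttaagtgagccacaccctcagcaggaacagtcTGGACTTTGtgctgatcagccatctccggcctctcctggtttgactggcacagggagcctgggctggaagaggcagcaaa
TM4SF5 promoter, chr17:4771636-4771935, plus strand: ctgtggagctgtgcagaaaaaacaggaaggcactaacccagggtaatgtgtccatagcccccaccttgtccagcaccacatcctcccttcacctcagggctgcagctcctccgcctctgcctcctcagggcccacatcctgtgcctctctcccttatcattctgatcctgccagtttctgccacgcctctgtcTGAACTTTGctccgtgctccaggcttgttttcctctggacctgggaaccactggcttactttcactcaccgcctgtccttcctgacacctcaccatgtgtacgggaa

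Each motif was searched on both strands in the 300-base promoters, which RefSeq held for 1151 of the separating genes higher in T3M-4, 462 of those higher in AsPC-1 and 11780 of all tested genes. TGANTCA, the AP-1 motif, was in 12.9% of the first, 8.23% of the second and 7.76% of all. CAAAGTNCA, for HNF4, was in 1.13%, 3.25% and 1.17%. The GATA motif AGATAA was in 14.2%, 10.6% and 8.4%, and TATAAA in 16.7%, 14.1% and 9.37%. CCNCNCCC, a motif of the KLF family, was in 75.7%, 74.9% and 78.5%. The median GC content of these promoters was 60.3%, 61.3% and 64.3%, so AT-rich motifs and base composition moved together, and the part of composition in these shares was not tested. A match describes letters in a window and is no measured site.

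Ligands and cytokines of the EGF and interleukin-1 systems were mostly higher in T3M-4, in 15 of 22 tested, with 3 higher in AsPC-1. Over all genes 33.5% were higher in T3M-4 and 28.7% were higher in AsPC-1. IL1A, an alarm cytokine of epithelium, had 41.6, 32.01, 29.003 and 31.2 CPM in T3M-4 and at most 0.187 in AsPC-1 (log2 9.10, SE 0.49). Its relative IL1B had 4.39 to 17.7 CPM against at most 0.131, and IL1RN, the receptor antagonist of both, 41.5 to 91.9 against 0.646 to 4.36. ERBB3, a receptor of the EGF receptor family, was higher in AsPC-1, at 75.6 to 143 CPM against 40.0 to 63.8 (log2 -0.84, SE 0.19), and in T>C reads it was not called (log2 -0.35, adjusted p = 0.358). Xenobiotic and NRF2-linked enzymes were divided, with 12 of 28 (42.9%) higher in T3M-4 and 13 (46.4%) in AsPC-1, beside the same shares of all genes. The aldo-keto reductases differed by member. AKR1C3 and AKR1C1 were at 171 to 413 and 64.2 to 210 CPM in AsPC-1 and at 6.78 to 10.1 and 7.01 to 8.28 in T3M-4, while AKR1B1 was at 19.1 to 23.8 in T3M-4 and at most 0.182 in AsPC-1. CYP3A5, a drug-metabolising cytochrome, had 5.39 to 19.3 CPM in AsPC-1 and at most 0.177 in T3M-4. CYP1A1, a target of the aryl hydrocarbon receptor, had 98.5, 85.5, 27.4 and 30.4 CPM in T3M-4 and at most 1.29 in AsPC-1, and the glutathione peroxidase GPX2 10.7 to 25.2 against 0.333 to 1.88.

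Interferon-response genes varied with the T3M-4 experiment. MX1, an antiviral GTPase, had 319 and 281 CPM in experiment 1 and 59.98 and 96.3 in experiment 2, against at most 3.37 in AsPC-1 (log2 7.05, SE 0.75). IFI6 had 182 and 118 CPM in experiment 1 and 11.9 and 8.83 in experiment 2, against 0.612 to 8.24 in AsPC-1, and within batch 2 it missed the threshold (log2 1.19, adjusted p = 0.148). IFI44L had 5.38 to 40.97 CPM in T3M-4 and reads in AsPC-1 library 3.2 only. In the antigen presentation and interferon list 10 of 23 (43.5%) were higher in T3M-4 and 3 (13%) in AsPC-1, against 33.5% and 28.7% of all genes. Of 30 cancer-testis genes listed, 29 were in the table and 11 passed the filter on low counts. Of these, 10 (90.9%) were higher in T3M-4, all separating, and 1 (9.09%) in AsPC-1, against 33.5% and 28.7% of all genes. A gene with next to no reads in AsPC-1 could pass the filter only through T3M-4, so these shares are partly set by the filter. MAGEA4 had 898, 921, 470 and 448 CPM in T3M-4 and, in AsPC-1, 3.03 in library 3.2 and 0 in the others. MAGEA12, with 16.5 to 25.8 CPM in T3M-4, had the same pattern. These genes have close copies, and whether reads were shared among the copies was not tested. IGF2BP1, a fetal RNA-binding protein, had 20.5 to 37.4 CPM in T3M-4 and at most 0.0812 in AsPC-1, while IGF2BP3 was higher in AsPC-1 (42.3 to 75.9 CPM against 24.4 to 32.1, log2 -1.16, SE 0.16).

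Among 25 driver and tumour suppressor genes, 9 (36%) were higher in T3M-4, 5 (20%) in AsPC-1 and 11 were not called, close to the 33.5% and 28.7% of all genes. Some were nearly empty in 1 line. MAP2K4, a kinase of the JNK cascade, had 13.9, 15.4, 14.4 and 13.24 CPM in T3M-4 and 18 counts in all over the 10 AsPC-1 libraries (log2 9.07, SE 0.61). STK11, the kinase LKB1, had 14.7 to 37.0 CPM in AsPC-1 and 33 counts in all over the 4 T3M-4 libraries (log2 -8.74, SE 0.39). For MDM2, a ubiquitin ligase, the values were 19.4 to 28.3 CPM in AsPC-1 and 67.8 to 120 in T3M-4 (log2 1.92, SE 0.14). TGFBR2, a receptor of TGF-beta, was higher in AsPC-1 by a smaller step (log2 -1.46, SE 0.15).

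KLF5 and its named coactivators were present in both lines. KLF5 reads were 20.7 to 37.6 CPM (median 25.5) in AsPC-1 and 163, 145, 136 and 140 CPM in T3M-4 (log2 2.45, SE 0.13, adjusted p = 5.51e-10). The counts cover the 3′ untranslated exons of the gene, and whether the degron cDNA carries them was not tested, so they are not taken as a measure of the tagged KLF5 or a check of the labels. RUVBL1 was at 6.52 to 12.4 CPM in AsPC-1 and at 21.1, 17.7, 31.8 and 32.9 in T3M-4 (log2 1.38, SE 0.17, adjusted p = 5.08e-06), and RUVBL2 at 43.4 to 81.4 against 79.0 to 121 (log2 0.96, SE 0.15, adjusted p = 5.96e-05). RUVBL2 ranges overlapped through AsPC-1 library 3.3 alone. KLF4, a related epithelial factor, was higher in T3M-4, at 19.2 to 31.995 CPM against 3.87 to 10.302 (log2 1.70, SE 0.24). TRRAP, a scaffold of acetyltransferase complexes, was at 131 to 218 CPM in AsPC-1 and 12.8, 7.68, 12.6 and 15.5 in T3M-4 (log2 -3.94, SE 0.21). Of 17 tested genes in the list of the KLF family and coactivators, 9 (52.9%) were higher in T3M-4 and 4 (23.5%) in AsPC-1. The shares of all genes were 33.5% and 28.7%. Besides RUVBL1 and RUVBL2 the list held INO80, ACTL6A and TRRAP, which the study did not name as KLF5 coactivators.

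TRRAP lay in a run of neighbouring genes that all separated the lines. Among genes with a mean of at least 5 CPM in either line, ordered along GENCODE v44 on hg38, runs of 4 or more neighbours that separated the lines in 1 direction were listed, a rule set after the values were seen. On chromosome 7, from 98252379 to 99394816, 7 neighbours were higher in AsPC-1, namely BRI3, BAIAP2L1, TRRAP, SMURF1, KPNA7, ARPC1A and ARPC1B. Their log2 differences were -3.48, -4.03, -3.94, -4.41, -5.57, -4.39 and -6.25. ARPC1B, a subunit of the actin-nucleating ARP2/3 complex, took 1.93% to 2.83% of all reads in AsPC-1 and 0.0329% to 0.0359% in T3M-4. The next gene, PDAP1, which overlaps ARPC1B in the annotation, had means of 40.1 CPM in T3M-4 and 34.4 in AsPC-1 (log2 0.22, SE 0.27, adjusted p = 0.494). On the other side TECPR1 and LMTK2 were also higher in AsPC-1 (log2 -2.64 and -2.86). ASNS did not differ (log2 0.00, SE 0.37), with 68.8 to 226 CPM in AsPC-1 and 59.1 to 209 in T3M-4. Beyond ASNS, SDHAF3, SEM1 and SLC25A13 were again higher in AsPC-1 (log2 -1.24, -1.98 and -2.40). Past PDAP1, BUD31 was higher in T3M-4 (log2 0.35) and CPSF4 and ATP5MF were not called. ZKSCAN5 and ZNF655, farther on, were higher in AsPC-1 (log2 -1.03 and -1.01).

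**Figure D5:**
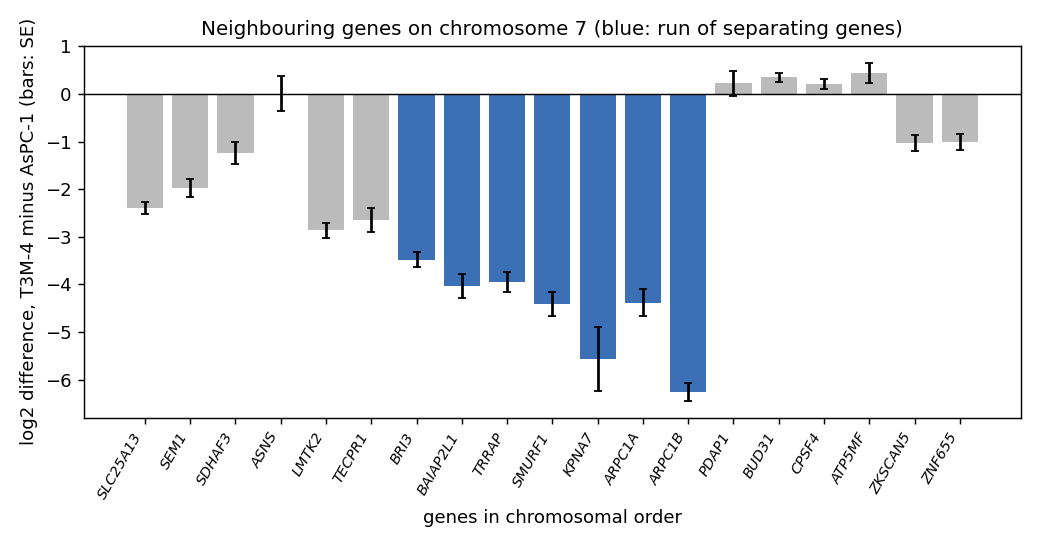
Log2 difference (T3M-4 minus AsPC-1, error bars SE) of genes in chromosomal order on chromosome 7, with the 7 separating neighbours in blue and 6 genes on each side in grey. The run ends at ARPC1B, at -6.25, and the next gene, PDAP1, is at 0.22.

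On chromosome 1, from 152984081 to 153391073, 7 neighbours were higher in T3M-4, namely SPRR1A, SPRR1B, SPRR2D, SPRR2A, SPRR2E, S100A9 and S100A8. IVL before them and S100A7 after S100A8, both under the 5 CPM limit, were also called higher in T3M-4, at 0.994 to 3.45 CPM against no read and at 0.808 to 3.78 CPM against at most 0.0398. Of the next genes over that limit, S100A6 was higher in AsPC-1 (log2 -1.16), as was S100A4 (-8.51). S100A2, the next over the limit after S100A4, was higher in T3M-4 (6.08), so nearby genes of this family separated the lines in opposite directions. Shorter runs higher in AsPC-1 lay at HOXA10 to HOXA13, at HOXB3 to HOXB6 and at ACHE, MUC3A, MUC12 and MUC17. Those higher in T3M-4 lay at the keratin genes KRT7, KRT6A, KRT5 and KRT4, at SERPINB13, SERPINB3, SERPINB7 and SERPINB2, and from LRAT to PDGFC. By whole chromosome the median log2 difference ran from -0.67 on chromosomes 2 and 10 to 0.505 on chromosome 22, and chromosome 7 had the highest share of tested genes separating toward AsPC-1, 10.1%.

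The labelled tissue was checked against marker genes. All 6 ductal epithelial markers, KRT7, KRT8, KRT18, KRT19, EPCAM and CDH1, were tested, with KRT7 low in AsPC-1 (1.04 to 7.73 CPM). Of the 5 endothelial markers 3 were tested, with means of at most 0.429 CPM in either line, and all 3 were called higher in T3M-4. Of the 6 acinar markers 1 was tested, CEL, and called higher in T3M-4, with means of 0.556 and 0.669 CPM in T3M-4 experiments 1 and 2. Of the 6 endocrine markers 0 were tested. Of the 6 immune markers 3 were tested. PTPRC had means of 0.0805 CPM in AsPC-1 and 0.0531 in T3M-4, LAPTM5 0.00792 and 2.40, called higher in T3M-4, and CD68, a lysosomal protein, 7.25 and 1.72, called higher in AsPC-1. Of the 8 fibroblast markers 4 were tested, COL1A1 was at a mean of 7.36 CPM in T3M-4 and 0.0157 in AsPC-1, and LUM at 0.772 in T3M-4 and 9.36 in AsPC-1.

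The same line comparison was made in separate libraries treated with DMSO, the solvent, for 4 h (5 of AsPC-1, 4 of T3M-4), where 55.7% of 15464 genes were called. All 5 AsPC-1 DMSO libraries came from experiments 1 and 2, in batch 1, and those of T3M-4 from batches 1 and 2. These experiment numbers also occur among the NEG libraries, and in AsPC-1 the NEG and DMSO groups were not balanced by batch. Of the 2220 separating genes, 2121 were tested in the DMSO libraries, 2101 were called in the same direction and 1 had the opposite sign. Their median absolute log2 difference was 5.147 in NEG and 5.045 in DMSO libraries. A test of the difference between the line differences found 0 of 16545 genes by edgeR, with 534 (3.23%) at an unadjusted p under 0.05, and DESeq2 called 20. For KLF5 that difference was 0.29 (SE 0.29), for HNF4A -0.51 (SE 0.63) and for TP63 0.12 (SE 1.195), each with an edgeR adjusted p of 1. CDH1 was not called in DMSO libraries (log2 0.71, adjusted p = 0.0692), and KRT19 was higher in T3M-4 there without a call (log2 0.25). Reads with T>C conversions made up 7.93% to 10.1% of all reads in AsPC-1 libraries and 12.2% to 13.3% in T3M-4 libraries. In T>C reads of the NEG libraries 56.3% of 13323 genes were called. Of the separating genes 1475 were tested in T>C reads, 1460 were called in the same direction and 1 had the opposite sign. KLF5 differed by 2.48 in T>C reads and by 2.45 in all reads, and HNF4A by -6.82 and -6.31. MYO1A and TM4SF5, at -4.04 and -3.94 in T>C reads against -7.83 and -8.32, had 0 CPM of T>C reads in T3M-4, so the smaller values carry the prior count of the fit. The T>C and all-reads values came from the same libraries and are no independent evidence of one another. In bulk RNA, fewer cells that express a gene cannot be told apart from less RNA per cell.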

How the data were processed

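SLAM-seq 3′ end libraries of AsPC-1 and T3M-4 were analysed from the counts the authors deposited, whole numbers per gene with no normalization, 1 table of all reads and 1 of T>C reads for each line. Alignment to hg38 and counting over the 3′ untranslated exons of GENCODE v44, summed per gene, were done by the authors in slamdunk with default settings. Strand handling and multi-mapping are not given in the sources used here, so overlapping or antisense genes and close copies (KRT6, SPRR2, MAGEA and AKR1C genes) are uncertain. For S100A4, IFI6, TSPAN8, KLF4, FOXA2, KRT80, MAGEA12 and GPX3 all counts were multiples of 4, 4, 3, 2, 2, 2, 2 and 2, for a reason that was not tested.

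The tables of the lines were joined on 29794 gene names. Only the 14 NEG 4 h libraries entered the main comparison, in edgeR 4.0.16 under R 4.3.3 (filterByExpr at its defaults, TMM, glmQLFit and glmQLFTest with no covariate, Benjamini-Hochberg adjusted p under 0.05). The SE is the log2 difference divided by the square root of its F statistic, an approximation. For genes near 0 in 1 line the difference carries the prior count of the fit and F does not, so there the SE is rough. A separating gene was called, differed by at least 3 (log2) and had CPM ranges apart. DESeq2 1.42.0, other scalings and filters, batch terms, summed experiments, left-out libraries, DMSO libraries and T>C reads served as alternatives. The fit was tested on simulated data. Named genes were a set list of 20, up to 3 per gene list and direction with the largest difference (called, ranges apart, mean of at least 10 CPM in the higher line), and the 8 largest per direction over all genes at 50 CPM. Genes of chromosomal runs, their neighbours and cell type markers are named besides. XIST, TSIX and Y-linked genes were left out. The members and lists were chosen with earlier results of these data known. Intervals other than SE were not used, and at these depths the spread between libraries, not counting error, set the precision of most values. Results for some genes are not reported here.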

Additional observations from a re-analysis of the deposited data

Results flagged for a closer look

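Of 178 groups of libraries, the 89 named genes in each line, 26 held a library whose highest or lowest value stood apart from the rest by Dixon's test. Chance flags about 1 in 20 such groups where values are normally distributed. That rate does not hold for near-empty genes, where reads in 1 library alone always raise a flag. AsPC-1 library 3.2 accounted for 21 of the 26 groups, each time as the highest AsPC-1 value of a gene higher in T3M-4. Its values in CPM were KRT5 (0.4495), KRT6A (1.573), KRT17 (2.223), FOXA2 (0.1374), IRX4 (0.281), TFAP2C (0.06244) and RAB25 (0.1436) for factors, keratins and their neighbours in the lists. For further squamous, matrix and signalling genes they were KRT13 (11.94), LY6D (0.5682), SPRR2D (0.2373), SERPINB2 (0.2872), COL4A1 (0.1061), IL1A (0.1873) and IFI44L (0.3559). The others were MAGEA4 (3.034), MAGEA12 (0.0999), MAP2K4 (0.07492), GPX3 (0.2248), GLUL (0.231), MIR205HG (5.85) and LDHB (2.572). Every one of these values lay below the lowest T3M-4 library, and each of the genes was called with and without library 3.2. The cause was not tested. The other values were RUVBL2 at 81.38 CPM in AsPC-1 library 3.3, FA2H at 23.01 CPM and KRT19 at a low 435 CPM in AsPC-1 library 1.1, FN1 at 6.14 CPM in AsPC-1 library 1.2, and AKR1C1 at 8.28 CPM in T3M-4 library 1.1.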

How the results depend on the processing

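Genes separating toward T3M-4 numbered 1569, and 869 with a filter of over 1 CPM in at least 4 libraries or 880 in T>C reads, both of which tested fewer genes. Leaving out libraries or experiments gave 1536 to 1810 toward T3M-4 and 631 to 822 toward AsPC-1, 4655 to 5321 and 3893 to 4823 called. Bailey Progenitor members higher in T3M-4 numbered 48, but 83 with no filter, 23 with the 1 CPM filter and 23 in T>C reads, and Chan-Seng-Yue Classical-A members 45 but 29 in T>C reads. The test of whether the line difference itself differed between NEG and DMSO libraries called 0 genes by edgeR, 20 by DESeq2 and 1 by edgeR without AsPC-1 library 3.2.

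MUC1 changed sign to 0.0818 without AsPC-1 libraries 1.1, 1.2, 3.1 and 3.2, and KRT19 to 0.25 in DMSO libraries and 0.083 without T3M-4 experiment 1, with -0.92 without T3M-4 experiment 2. The cause was not tested. DESeq2 lost the calls of IRX4, SERPINB2, GLUL, MIR205HG and LDHB, at log2 differences of 5.75, 5.92, 5.75, 5.68 and 5.68. Of the values of named genes and smaller lists, 3862 kept direction and call, 42 moved, 14 lost a call, 6 gained one and 3 changed sign. Lost calls also touched VILL, ERBB3 and FA2H in T>C reads, FA2H in summed counts, in batch 1 and without T3M-4 experiment 2, CDH1 in DMSO libraries, and KRT80 and IFI6 in batch 2. Calls were gained by SERPINB5 in batch 2 and without AsPC-1 experiment 1, KRT19 in batch 1 and without T3M-4 experiment 2, and MUC1 without AsPC-1 libraries 1.3, 1.4, 3.3 and 3.4. Library totals in place of TMM moved the median log2 difference of all genes from 0.055 to 0.15.

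Replicate numbers are shared between the lines, but nothing says what they share, and same-numbered libraries deviated together with r = 0.439, 0.018, 0.12 and 0.196, so they were not taken as pairs. With the number as a replicate block, 1564 and 662 genes separated the lines and 4916 and 4224 were called, and MUC1 was called at -1.44. Not every library correlated best with its own number.

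Counts were deep enough that counting error limits only genes near 0, where a fitted fold depends on a few reads. All alternatives share the 14 libraries of 1 line per subtype, except the DMSO libraries, and none separates line from library set.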
